A study of Xenopus tropicalis with 27 samples.

Results

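The genes described here are chromatin remodelers and histone modifiers of the frog brain: the smarc, ARID and CHD remodelers, the lysine methyltransferases and demethylases, the histone deacetylases, the polycomb core, and the DNA methyltransferases with the TET dioxygenases. They were chosen by symbol, as every gene of both count tables whose symbol matched these family names, leaving out arid1b, chd2 and chd8. The choice was made with earlier results of these data known. The pattern matched 85 symbols, of which 82 were kept, out of 16212 genes in the drug table and 16049 in the time course. Brains of Xenopus tropicalis tadpoles were sequenced in 27 libraries, 3 per group. The untreated wild-type groups were stages 40, 42, 44, 45, 46 and 47. Tadpoles of the drug groups were kept in 10 µM β-estradiol, 5 µM cyclopamine or, as the control, DMSO from stage 30 until their brains were collected at stage 46, with 3 brains pooled in each library and no genotype in the labels. Whole brain was the labelled tissue, so each value is an average over its cell types.

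DNA in the nucleus is wrapped around histones, and these proteins decide how tightly it is packed. Remodelers of the SNF2 type (SWI/SNF, ISWI and CHD complexes) use ATP to slide or evict histones, while methyltransferases, demethylases and deacetylases write or erase chemical marks on the histone tails. Polycomb complex PRC2 methylates lysine 27 of histone H3 and keeps genes silent, and DNA methyltransferases and TET enzymes write and oxidize methylated cytosine. In mammals, dividing neural precursors and neurons use different versions of several of these complexes, and mutations in many of the genes cause neurodevelopmental disorders. Roles given below are those known from mammals unless another animal is named.

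Library totals lay between 12.9 and 48.3 M counts in the time course and between 17.6 and 28.5 M in the drug table. Every one of the 82 genes passed the filter on low counts, and the lowest count of any of them in a library was 19 (smarca1) in the time course and 58 (setd9) in the drug table. Levels are given as CPM, the count scaled by the library total and its TMM factor, which compares a gene between libraries and not with other genes, since gene lengths were not used. Fold changes are log2 values ± SE from edgeR, and a gene was called at an adjusted p under 0.05 over all genes of its table. All 7 genes used to check the labelled tissue, markers of neurons and neural precursors, were present, at 174 CPM or more in every time course library and 201 CPM or more in every drug library.

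Between stage 40 and stage 47 most of the chromatin genes changed, and more of them fell than rose. At stage 47, 44 of 82 (53.7%) were called lower and 23 (28%) higher than at stage 40, while 15 were not called. Over all genes tested, 40.8% were called lower, 40.0% higher and 80.8% in either direction, so the 67 members called (81.7%) were close to the background in number and differed from it in direction. The median log2 fold change was -0.35 over the members and -0.01 over all genes. At a fold of at least 2, 15 members were lower (18.3%, against 16.9% of all genes) and 12 higher (14.6%, against 21.4%). At a fold of at least 4, the 4 lower members (4.88%, against 4.34%) were smarca5, ezh2, hdac1 and smarcd1, and the 3 higher ones (3.66%, against 8.64%) were smarca1, chd5 and ezh1.

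Markers of dividing cells moved the same way: the summed level of the 12 measured of 15 listed lay between 1657 and 1691 CPM at stage 40 and between 167 and 182 CPM at stage 47, and all 12 were called lower. Of 12 neuronal markers, 9 were called higher and 3 lower. In these whole-brain samples fewer cells of a type and less RNA per cell cannot be told apart, and the part of the dividing cells in the changes below was not tested.

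**Figure D1:**
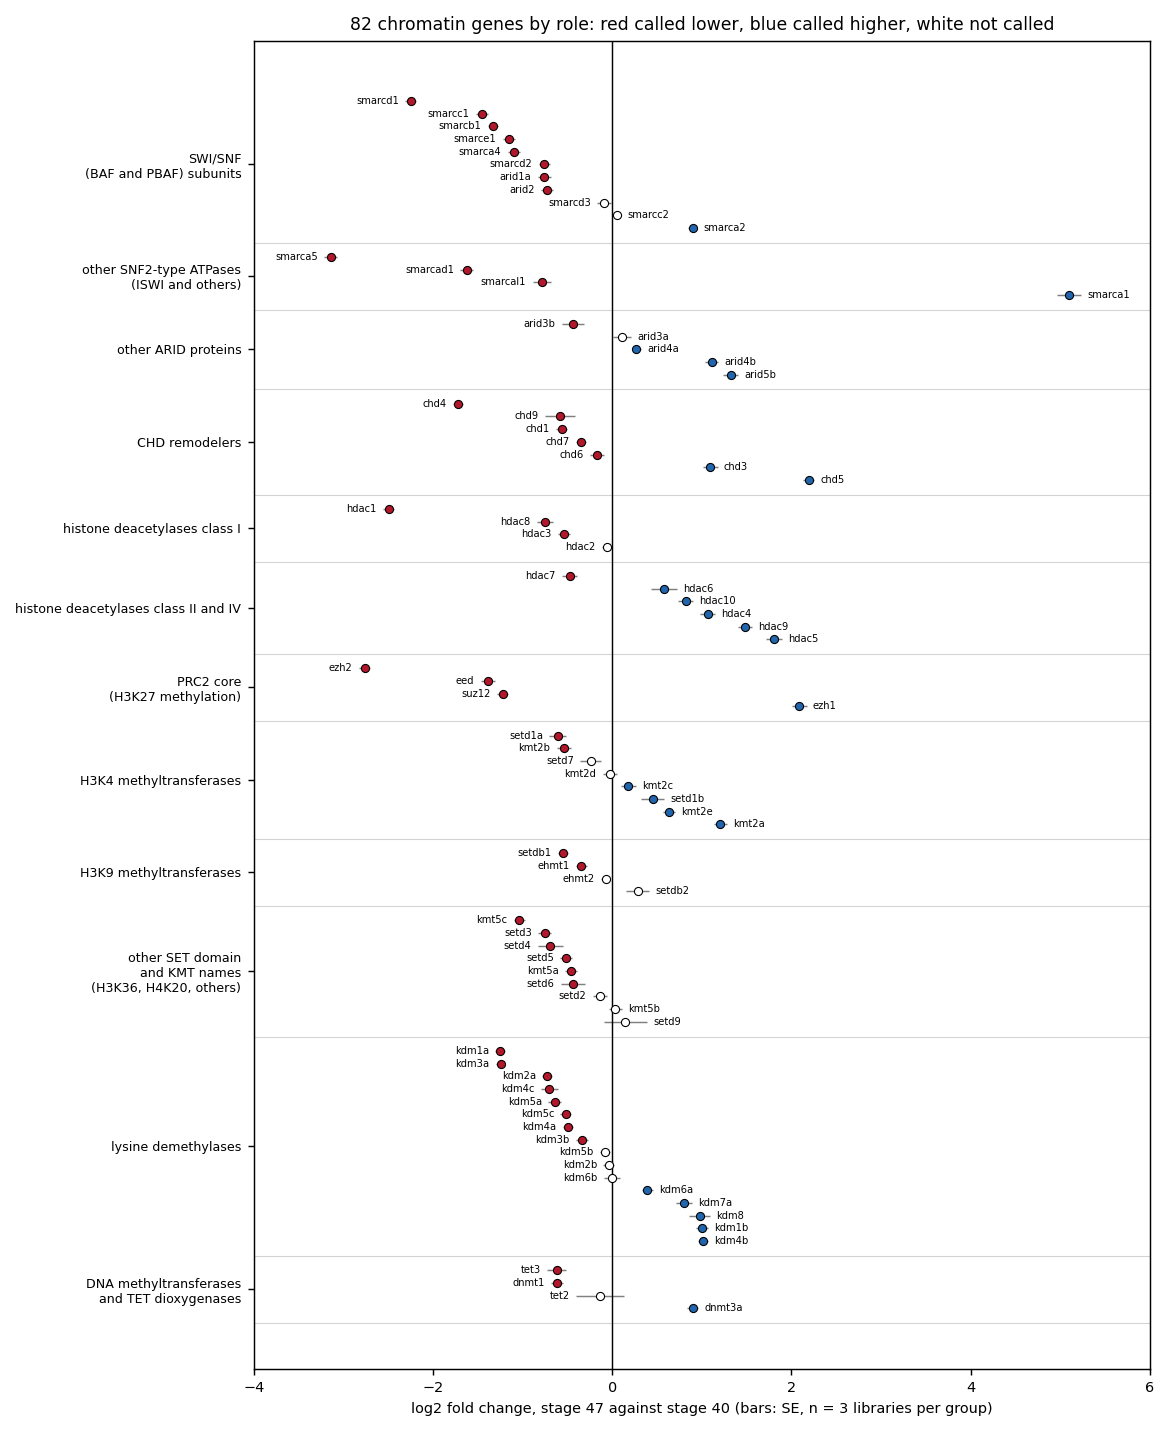
Log2 fold change (x axis) of each of the 82 chromatin genes at stage 47 against stage 40, grouped by role on the y axis, with bars for the SE (3 libraries per group). Red points were called lower (44 genes), blue points higher (23 genes) and white points were not called (15 genes); smarca1 lies farthest to the right at 5.10 and smarca5 farthest to the left at -3.14.

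The widest changes lay in the ISWI branch, whose ATPases space nucleosomes evenly. The ISWI ATPase smarca5 (SNF2H), which is needed for the division of precursor cells, measured 305, 286 and 265 CPM in the 3 stage 40 libraries and 33.5, 34.6 and 28.8 CPM at stage 47. Its close relative smarca1 (SNF2L), which is enriched in neurons of the mouse, measured 1.06, 1.07 and 0.93 CPM at stage 40 and 33.3, 37.0 and 32.6 CPM at stage 47. No library of one stage came near the range of the other for either gene, and they moved in opposite directions. The log2 fold change was -3.14 ± 0.07 for smarca5 (edgeR adjusted p = 1.81e-20) and 5.10 ± 0.13 for smarca1 (edgeR adjusted p = 1.98e-19). The remaining SNF2-type genes with smarca names both fell. They were smarcad1, which helps DNA end resection and heterochromatin renewal (-1.62 ± 0.07), and smarcal1, which rewinds DNA at stalled replication forks (-0.79 ± 0.10).

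Among the SWI/SNF subunits, 8 of 11 were called lower, 1 higher and 2 were not called. The catalytic ATPase smarca4 (BRG1) measured 686, 738 and 796 CPM at stage 40 and 355, 337 and 345 CPM at stage 47, a log2 change of -1.10 ± 0.07. The alternative ATPase smarca2 (BRM) rose from 102, 95.7 and 97.2 CPM to 177, 177 and 194 CPM (0.90 ± 0.05). The ranges did not overlap for either ATPase. The accessory subunit smarcd1 (BAF60A) fell most, from 340, 309 and 291 CPM to 67.2, 69.4 and 61.0 CPM (-2.25 ± 0.06), whereas its relative smarcd3 (BAF60C) was not called (-0.09 ± 0.08, edgeR adjusted p = 0.303). The scaffold pair showed a like split: smarcc1 (BAF155) fell by 1.45 on the log2 scale (SE 0.07), and smarcc2 (BAF170) stood at 227, 238 and 246 CPM at stage 40 and 250, 242 and 244 CPM at stage 47 (0.05 ± 0.05, edgeR adjusted p = 0.349). The core subunits smarcb1 (-1.33 ± 0.06) and smarce1 (-1.16 ± 0.07), the third BAF60 gene smarcd2 (-0.76 ± 0.06), and the DNA-binding subunits arid1a of BAF (-0.76 ± 0.08) and arid2 of PBAF (-0.72 ± 0.07) fell as well.

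Of 14 measured BAF and PBAF partner genes outside the name pattern, 11 were called lower and 1 higher. The lowest p-values among those called belonged to actl6a, an actin-like subunit of precursor cells (-2.28 ± 0.07), bcl7a (-1.64 ± 0.07), brd7 (-1.06 ± 0.05) and the PBAF subunit pbrm1 (-1.08 ± 0.07). In mammals neurons replace some precursor subunits by dpf1, dpf3 and ss18l1, which were picked out here after their values had been seen. These also fell: dpf1 by 0.57, dpf3 by 0.53 and ss18l1 by 0.15 on the log2 scale.

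All 7 CHD remodelers were called, 5 lower and 2 higher. The NuRD complex, which joins remodeling to deacetylation, is built around 1 of the related ATPases chd3, chd4 or chd5. Of these, chd4 measured 1246, 1279 and 1317 CPM at stage 40 and 386, 387 and 394 CPM at stage 47 (-1.72 ± 0.06). Its relative chd5, known as the neuronal form, went from 55.6, 62.2 and 60.7 CPM to 264, 269 and 285 CPM (2.19 ± 0.06). The libraries of the 2 stages stood apart for both genes, and chd4 fell while chd5 rose at each of the 5 steps between successive stages. Like chd5, chd3 rose (1.10 ± 0.08). The smaller changes were those of chd1, which binds methylated H3K4 (-0.56 ± 0.06), chd7, the CHARGE syndrome gene (-0.35 ± 0.06), and chd9 (-0.58 ± 0.17). The call for chd6 (-0.17 ± 0.08, edgeR adjusted p = 0.0427) was lost when any of 4 of the 6 libraries was left out, and its ranges overlapped.

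In the polycomb complex PRC2, 3 of the 4 core genes were called lower and 1, an alternative catalytic subunit, higher. The methyltransferase ezh2, the enzyme of dividing cells, measured 208, 193 and 185 CPM at stage 40 and 27.6, 29.8 and 28.7 CPM at stage 47 (-2.77 ± 0.06, edgeR adjusted p = 1.81e-20). The alternative enzyme ezh1, found mostly in non-dividing cells, measured 29.4, 28.7 and 28.8 CPM and then 127, 116 and 127 CPM (2.09 ± 0.08, edgeR adjusted p = 1.12e-16). Neither gene's ranges overlapped between the stages. The shared core subunits fell: eed, which reads the H3K27 mark, by 1.39 (SE 0.08) and suz12 by 1.22 (SE 0.06) on the log2 scale. Of 7 partner genes, 4 were called lower and 2 higher, among them the histone chaperone rbbp4 (-2.33 ± 0.10), the targeting factor mtf2 (-1.69 ± 0.08) and jarid2, a cofactor of a PRC2 subtype (1.26 ± 0.07).

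**Figure D2:**
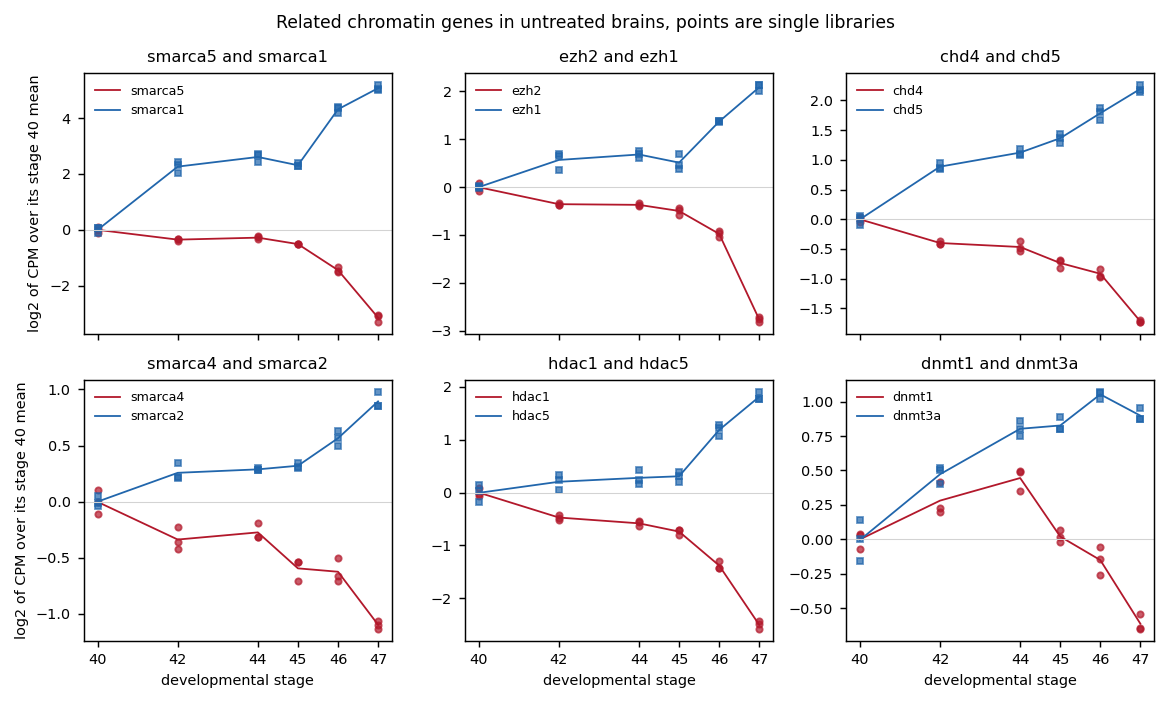
Level of related chromatin genes over stages 40 to 47 (x axis) as the log2 of CPM over the gene's own mean at stage 40 (y axis), with a point for each library and a line through the 3-library means. Only pairs that moved apart are drawn, so in each panel the red gene ends below its stage 40 level and the blue gene above it. The panel of hdac1 shows the class II gene hdac5 in place of its near twin hdac2, which was not called. The pairs smarcc1 and smarcc2, smarcd1 and smarcd3, kdm5b and kdm5c, and kdm6a and kdm6b are not drawn. Both ezh2 and smarca5, and also hdac1, drop most after stage 45, and dnmt1 peaks at stage 44.

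Histone deacetylases split by class. Of the 4 class I enzymes, among them hdac1 and hdac2 of the NuRD, CoREST and SIN3 complexes, 3 were called lower and the remaining gene was not called. Here hdac1 fell from 404, 377 and 367 CPM to 70.8, 68.2 and 64.4 CPM (-2.50 ± 0.06, edgeR adjusted p = 5.51e-20). Its near twin hdac2 was not called, with 99.0, 89.9 and 91.1 CPM at stage 40 and 89.3, 89.6 and 89.6 CPM at stage 47 (-0.06 ± 0.05, edgeR adjusted p = 0.303). The falls of hdac8 (-0.75 ± 0.09) and hdac3, the deacetylase of the NCoR corepressor (-0.54 ± 0.07), were smaller. Of the 6 class II enzymes, 5 were called higher and 1 lower. The signal-regulated class IIa enzyme hdac5 measured 50.7, 63.6 and 58.7 CPM and then 216, 195 and 195 CPM (1.81 ± 0.09). The other class IIa genes hdac9 (1.48 ± 0.08) and hdac4 (1.07 ± 0.08) rose too, while hdac7 fell (-0.48 ± 0.08). The cytoplasmic tubulin deacetylase hdac6 (0.58 ± 0.14) and the polyamine deacetylase hdac10 (0.82 ± 0.08) were also higher.

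Of 11 measured NuRD and CoREST partners, 6 were called lower and 3 higher. The corepressor rcor2 (-1.84 ± 0.07) and the NuRD subunits cdk2ap1 (-1.82 ± 0.08), gatad2a (-1.32 ± 0.06) and mbd3 (from a mean of 170 to 85.3 CPM) had the lowest p-values among those called.

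For DNA methylation, the maintenance enzyme dnmt1, which copies the pattern at replication, was lower at stage 47 and the de novo enzyme dnmt3a higher. Levels of dnmt1 were 154, 166 and 166 CPM at stage 40, 228, 229 and 207 CPM at stage 44, and 103, 111 and 104 CPM at stage 47. Thus it was highest in the middle of the course, with a log2 change of 0.45 ± 0.06 from stage 40 to 44 and -1.06 ± 0.07 from stage 44 to 47. Levels of dnmt3a were 354, 396 and 435 CPM at stage 40, 687, 666 and 716 CPM at stage 44 and 765, 724 and 723 CPM at stage 47. Its rise lay before stage 44 (0.80 ± 0.06), and the later change was not called (0.10 ± 0.06, edgeR adjusted p = 0.166). The dioxygenase tet3 fell (-0.62 ± 0.10), and tet2 was not called among its stage libraries, which ran from 28.2 to 47.4 CPM at stage 40. Outside the name pattern, the dnmt1 cofactor uhrf1 (-2.71 ± 0.08) and the DNA glycosylase tdg (-1.96 ± 0.11) fell.

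The genes listed as H3K4 methyltransferases, a class that marks promoters and enhancers, moved both ways: 4 of 8 were higher, 2 lower and 2 not called. The largest rise was that of kmt2a (MLL1), from 108, 128 and 119 CPM to 272, 262 and 286 CPM (1.21 ± 0.08), with no overlap. Smaller rises were seen for kmt2e (0.63 ± 0.07) and setd1b (0.45 ± 0.13). Its relative setd1a fell (-0.61 ± 0.09), as did kmt2b (-0.54 ± 0.08). The call for kmt2c (0.18 ± 0.08, edgeR adjusted p = 0.0471) was lost without any of 4 of the 6 libraries.

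Of the 4 H3K9 methyltransferases, which build heterochromatin, setdb1 (-0.55 ± 0.06) and ehmt1 (-0.34 ± 0.06) were lower, and ehmt2 and setdb2 were not called. Of 10 further SET domain and KMT genes, with setmar counted although its symbol lies outside the name pattern, 6 were lower and 4 were not called. The largest fall there was that of the H4K20 methyltransferase kmt5c, from 90.2, 87.8 and 86.3 CPM to 47.1, 41.7 and 39.8 CPM (-1.04 ± 0.06), followed by the actin histidine methyltransferase setd3 (-0.76 ± 0.07).

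Lysine demethylases, the erasers, were mixed: 8 of 16 fell, 5 rose and 3 were not called. The H3K4 demethylase kdm1a (LSD1), the enzyme of the CoREST complex, fell from 226, 215 and 222 CPM to 95.3, 92.9 and 90.3 CPM (-1.25 ± 0.05). The H3K9 demethylase kdm3a fell by the same amount (-1.25 ± 0.05), and the H3K36 demethylase kdm2a less (-0.73 ± 0.06). Among the risers was kdm1b, the flavin-dependent relative of kdm1a, from 27.1, 28.6 and 29.8 CPM to 57.7, 58.7 and 55.5 CPM. The H3K9 demethylase kdm4b also rose (1.01 ± 0.06). Of the H3K4 demethylases kdm5b and kdm5c, only the fall of kdm5c was called (-0.52 ± 0.06). The H3K27 demethylase kdm6a rose modestly (0.39 ± 0.06). Its relative kdm6b was not called between stages 40 and 47, where its levels overlapped at 369 to 471 CPM and 416 to 452 CPM.

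Of the other ARID proteins, 3 of 5 were higher and 1 lower. Both arid5b, a partner of the demethylase phf2 (24.1, 27.7 and 27.8 CPM, then 65.1, 67.3 and 67.0 CPM; 1.32 ± 0.08), and arid4b of the SIN3 deacetylase complex (1.11 ± 0.07) rose without overlap.

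Over all 6 stages, 78 of 82 members differed somewhere (95.1%, against 88.4% of all genes), the exceptions being chd6, ehmt2, setd9 and tet2. The highest mean was at stage 40 for 44 members and at stage 47 for 24, a count that was not made over all genes. Taken in 2 intervals that share the stage 44 libraries, 60 members were called from stage 40 to 44 (20 higher, 40 lower), where 50.8% of all genes were called, 26.2% higher and 24.6% lower. From stage 44 to 47, 64 were called (27 higher, 37 lower), against 73.4% of all genes, 36.5% higher and 36.9% lower. Both intervals were called downward for 27 of 82 members, against 15.2% of all genes, and upward for 14, against 16.9% of all genes.

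Larger falls came late, among the members and over all genes. From stage 40 to 44, 0% of members and 1.28% of all genes were called lower by at least 2-fold. From stage 44 to 47 the shares were 12.2% and 12.7%. Of the 44 members that fell from stage 40 to 47, 30 had the larger change after stage 44. That count was not made over all genes. For smarca5 the log2 change was -0.28 ± 0.06 before stage 44 and -2.86 ± 0.07 after it. The same order held for ezh2 (-0.37 ± 0.06, then -2.40 ± 0.06) and hdac1 (-0.58 ± 0.06, then -1.92 ± 0.06). The dividing-cell markers did not fall in the first interval. They summed to between 1657 and 1691 CPM at stage 40 and between 1815 and 2003 CPM at stage 44, with 5 of 12 called higher and 0 lower. Later they summed to between 872 and 1112 CPM at stage 46 and between 167 and 182 CPM at stage 47. In contrast, smarca1 rose about equally in both intervals (2.64 ± 0.15 and 2.46 ± 0.11).

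A few genes turned. Called down and then up were arid3a, kdm2b, kdm5b, kdm6b and kdm7a. Turns were not counted over all genes. Both intervals use the stage 44 libraries, so the calls that make up a turn are not independent. The H3K9 and H3K27 demethylase kdm7a measured 103, 104 and 106 CPM at stage 40, 55.5, 57.5 and 57.2 CPM at stage 45 and 173, 162 and 211 CPM at stage 47. It thus fell by 0.61 (SE 0.09) up to stage 44 and rose by 1.41 ± 0.09 after it. For kdm6b the stage 45 libraries, at 595, 756 and 724 CPM, lay above all 15 other libraries of the course, with stage 46 back at 287, 288 and 292 CPM. Called up and then down were dnmt1, hdac2, setd6, setd7 and smarcd3. Levels of hdac2 were 118, 118 and 119 CPM at stage 44, above every library of stages 40 and 47 (0.34 ± 0.05, then -0.40 ± 0.05). The lysine methyltransferase setd6 went up by 0.53 ± 0.13 and fell by 0.96 (SE 0.14) on the log2 scale, with means of 7.80, 11.2 and 5.77 CPM at stages 40, 44 and 47.

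Cyclopamine blocks Smoothened and with it Hedgehog signalling, which drives the division of neural precursors. With cyclopamine, 19 of 82 members (23.2%) were called and all 19 were lower than in DMSO. Over all genes, 19.6% were called, 9.59% lower and 9.97% higher. The median log2 change was -0.21 over the members and -0.08 over all genes. The change was negative for 67 of 82 members and for 58.1% of all genes. At an unadjusted p under 0.05 there were 39 lower and 4 higher members, beside 5926 of 16212 genes in either direction. DESeq2 called 20 members lower and 3 higher, where it called 23.3% of all genes. The split moved with the scaling: relative log expression factors gave 13 lower and 2 higher, where 5.32% of all genes were lower and 10.9% higher. The authors' quantile-normalized values tested with limma gave 5 lower and 3 higher, where 14.5% of all genes were called in either direction.

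The SWI/SNF subunits held 7 of the 19: smarca4, arid2, smarcb1, smarcc1, smarcc2, smarcd1 and smarcd3, out of 11 measured, and relative log expression scaling gave 5 lower and 1 higher there. The others were smarca5, ezh2, hdac1, hdac2, kdm1a, kdm4a, kdm4c, kdm7a, setd3, dnmt1, tet2 and tet3. In the CHD, H3K4 and H3K9 role lists edgeR called 0 of 7, 0 of 8 and 0 of 4 genes, where 19.6% of all genes were called. Each of these lists held 2 genes at an unadjusted p under 0.05, and DESeq2 called 1 gene across them. Likewise, edgeR called 0 of the 5 other ARID proteins and 0 of the 6 class II deacetylases, with 1 and 2 at an unadjusted p under 0.05. These role lists are named here because edgeR called no gene in them. Relative log expression scaling called 1 class II deacetylase higher. Of the BAF and PBAF partners, 7 of 14 were called lower, with bcl7a (-0.74 ± 0.14) and actl6a (-0.71 ± 0.15) among them, and 4 were lower with relative log expression scaling.

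The dioxygenase tet3 measured 266, 248 and 212 CPM in DMSO and 163, 154 and 159 CPM with cyclopamine (-0.61 ± 0.11, edgeR adjusted p = 0.00489). The H3K9 demethylase kdm4c measured 33.5, 32.8 and 28.7 CPM and then 22.6, 21.4 and 22.0 CPM (-0.53 ± 0.10, edgeR adjusted p = 0.00604). The groups did not overlap for either, and these 2 calls alone among the 19 held when any 1 of the 6 libraries was left out. Its relative kdm4a went from 283, 283 and 284 CPM to 200, 223 and 216 CPM (-0.41 ± 0.08, edgeR adjusted p = 0.00849).

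The PBAF subunit arid2 measured 109, 109 and 104 CPM in DMSO and 81.2, 83.9 and 82.3 CPM with cyclopamine (-0.38 ± 0.08, edgeR adjusted p = 0.0101). For kdm1a the levels were 130, 122 and 115 CPM and then 90.0, 87.8 and 95.1 CPM (-0.43 ± 0.09, edgeR adjusted p = 0.0123). Every cyclopamine library lay below every DMSO library for both. The scaffold smarcc1 went from 335, 320 and 324 CPM to 234, 224 and 237 CPM (-0.49 ± 0.12, edgeR adjusted p = 0.0182).

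The largest changes had the widest errors. These errors come from the fit of all drug groups, so the spread of the estradiol libraries also enters them. The ATPase smarca5 measured 55.0, 53.6 and 61.4 CPM in DMSO and 32.5, 34.6 and 28.7 CPM with cyclopamine (-0.83 ± 0.24, edgeR adjusted p = 0.0397). For ezh2 the levels were 59.6, 53.9 and 73.2 CPM and then 39.3, 37.3 and 38.6 CPM (-0.70 ± 0.19, edgeR adjusted p = 0.0316). The groups stood apart in both genes. Other calls near the threshold were those of dnmt1 (-0.50 ± 0.13), hdac1 (-0.51 ± 0.13), smarcd1 (-0.57 ± 0.14) and smarca4 (-0.32 ± 0.10), and each of these 6 calls was lost without any 1 of the 6 libraries.

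The count itself moved with single libraries. It was 2 without cyclopamine replicate 1, 11 without replicate 2 and 2 without replicate 3, and 3, 6 and 10 without DMSO replicates 1, 2 and 3. Over all genes the share called was 11%, 16.2% and 8.78% without cyclopamine replicates 1, 2 and 3. It was 6.95%, 8.25% and 10.9% without DMSO replicates 1, 2 and 3. Markers of other cells moved with the drug: dividing-cell markers summed to between 327 and 400 CPM in DMSO and between 166 and 176 CPM with cyclopamine, with 8 of 12 called lower. Muscle markers summed to between 9.94 and 13.9 CPM in DMSO and between 77.4 and 153 CPM with cyclopamine (7 of 8 called higher), and leukocyte markers to between 34.1 and 41.8 CPM and between 91.0 and 122 CPM (8 of 8 higher). Epidermis markers summed to between 98.4 and 136 CPM in DMSO and between 145 and 277 CPM with cyclopamine (3 of 6 called higher). For neuronal markers the sums overlapped, at 8066 to 8592 CPM and 6218 to 8271 CPM (3 of 12 called lower, 0 higher). Of the red blood cell markers, 0 of 5 were called. Their part in the result was not tested.

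**Figure D3:**
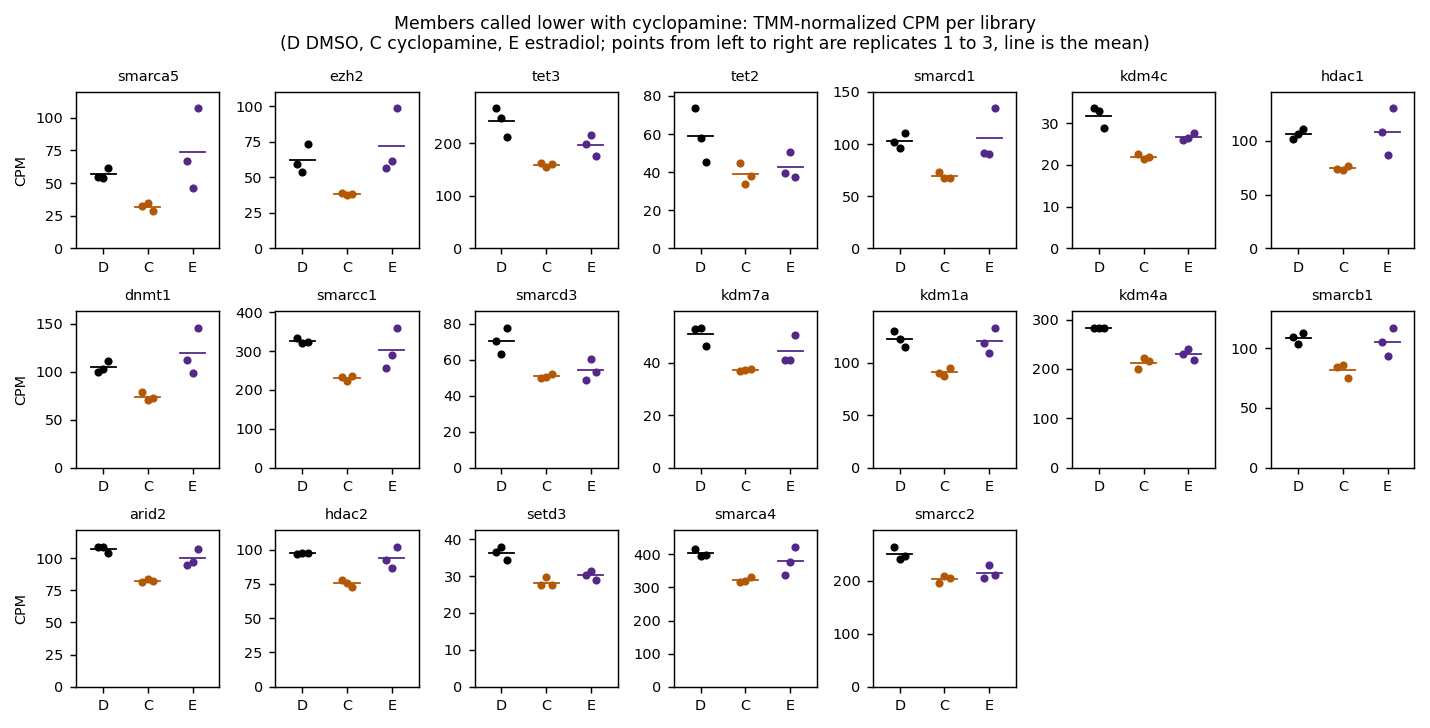
CPM per library (y axes, from 0) of the 19 members called lower with cyclopamine, in DMSO (D), cyclopamine (C) and estradiol (E), with points for replicates 1 to 3 and a line for the mean. Every cyclopamine library lies below every DMSO library in each panel, and estradiol replicate 3 is the highest of its group for smarca5 (107 CPM), ezh2 (98.5 CPM) and dnmt1 (146 CPM).

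Estradiol, the estrogen hormone, was compared with the same DMSO libraries. Only kdm5b was called, as lower (1 of 82, 1.22%), against 2.07% of all genes in either direction and 0.833% lower. An unadjusted p under 0.05 was found for 12 of 82 members and for 3622 of 16212 genes. Levels of the H3K4 demethylase kdm5b were 278, 291 and 287 CPM in DMSO and 220, 234 and 207 CPM with estradiol (-0.37 ± 0.08, edgeR adjusted p = 0.0461). The groups did not overlap, but the call was lost without any of 5 of the 6 libraries, the exception being estradiol replicate 2. Not called were hdac9, at 68.8, 64.5 and 60.6 CPM in DMSO and 50.8, 46.4 and 30.2 CPM with estradiol (-0.61 ± 0.17, edgeR adjusted p = 0.0873), kdm4a (-0.30 ± 0.08, edgeR adjusted p = 0.084) and smarcd3 (-0.38 ± 0.11, edgeR adjusted p = 0.0878). Leaving out estradiol replicate 2 gave 4 calls, where 9.31% of all genes were called. DESeq2 also gave 4, where 8.95% of all genes were called. Leukocyte markers summed to between 34.1 and 41.8 CPM in DMSO and between 62.6 and 99.8 CPM with estradiol (5 of 8 called higher), and muscle markers to between 9.94 and 13.9 CPM and between 24.2 and 45.6 CPM (2 of 8 called higher). Of the dividing-cell markers edgeR called 0 of 12 and DESeq2 9, and all 12 were higher at an unadjusted p under 0.05, with sums between 327 and 400 CPM in DMSO and between 421 and 1071 CPM with estradiol. Red blood cell markers summed to between 354 and 724 CPM in DMSO and between 703 and 2754 CPM with estradiol. Of the 5 measured, edgeR called 1, as higher, and DESeq2 3. For neuronal and epidermis markers edgeR called 0 of 12 and 0 of 6. The part of all these markers in the result was not tested.

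The 2 drugs were then set against each other. With estradiol 7 members were higher than with cyclopamine (8.54%, against 4.16% of all genes called higher and 6.77% in either direction). None was called lower by edgeR, with 2 lower at an unadjusted p under 0.05 and 1 by DESeq2. In either direction, 25 members and 3696 of 16212 genes had an unadjusted p under 0.05. DESeq2 called 10 members and 11% of all genes. The 7 called higher by edgeR were smarca5 (1.20 ± 0.24), ezh2 (0.91 ± 0.19), dnmt1 (0.69 ± 0.13), smarcd1 (0.61 ± 0.14), suz12 (0.57 ± 0.13), hdac1 (0.54 ± 0.13) and kdm1a (0.41 ± 0.09), with edgeR adjusted p-values from 0.0139 for dnmt1 to 0.0333 for hdac1. All but suz12 were also called lower with cyclopamine than in DMSO, a comparison that shares the cyclopamine libraries.

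Estradiol libraries were spread for these genes: smarca5 measured 66.8, 46.6 and 107 CPM, dnmt1 112, 99.2 and 146 CPM, and ezh2 56.8, 61.2 and 98.5 CPM. Replicate 3 was the highest each time, yet every estradiol library lay above every cyclopamine library. The dividing-cell markers were also highest in replicate 3, at 534, 421 and 1071 CPM in estradiol replicates 1, 2 and 3, and all 12 were called higher than with cyclopamine. Of the red blood cell markers, 1 of 5 was called higher with estradiol than with cyclopamine. Muscle markers were lower with estradiol than with cyclopamine (7 of 8 called, median log2 change -1.77), as was 1 of 8 leukocyte markers. Their part in the result was not tested. The count of 7 was 1, 2 and 0 without cyclopamine replicates 1, 2 and 3, and 11 without estradiol replicate 2. Without estradiol replicate 3 it was 5 higher and 1 lower. The count was 4 with relative log expression scaling. Over all genes the share called was 3.3%, 4.39% and 2.74% without cyclopamine replicates 1, 2 and 3. It was 9.14% and 5.08% without estradiol replicates 2 and 3, and 6.1% with relative log expression scaling.

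Change with stage and change with drug come from separate libraries and can be set side by side, but their stage 46 brains differed. Dividing-cell markers summed to between 327 and 400 CPM in DMSO, labelled stage 46, and between 872 and 1112 CPM in untreated stage 46 brains. The time course and the drug libraries were scaled separately, and this difference was not tested. Across the 82 genes, which are not independent of each other, the log2 change from stage 40 to 47 had a Pearson correlation of 0.413 with that under cyclopamine and of -0.364 with that under estradiol. Over all 15608 genes in both tables the values were 0.18 and -0.212. Of the 44 members that fell with stage, 14 were called lower with cyclopamine, against 15.5% of all genes that fell with stage. Of the 23 that rose with stage, 1 was (kdm7a), against 5.68% of all genes that rose. The drug comparisons share DMSO, so the correlations are not independent of each other.

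**Figure D4:**
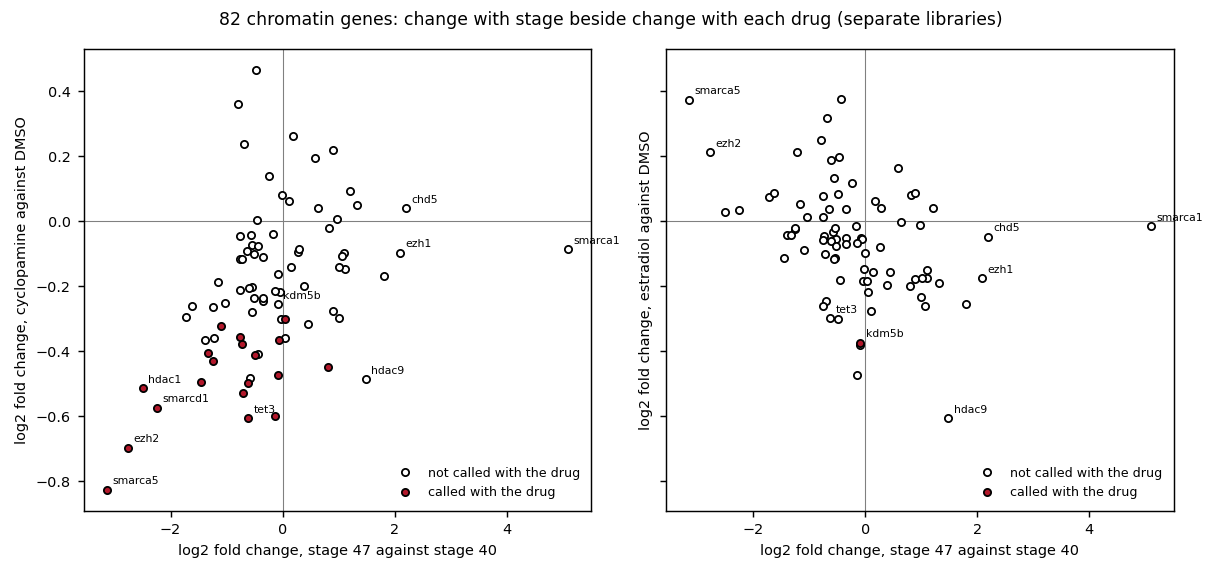
Log2 fold change of the 82 genes at stage 47 against stage 40 (x axis) beside that with cyclopamine (left, y axis) and with estradiol (right, y axis) against DMSO, with red points for genes called with the drug. Under cyclopamine smarca5 and ezh2 lie lowest on both axes at -0.83 and -0.70 on the y axis; under estradiol the only red point is kdm5b, close to 0 on the stage axis.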

How the data were processed

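Per the labels' protocols, RNA was extracted with Trizol, selected for poly(A) and made into stranded libraries. Deposited by the authors were a time course table and a drug table of raw counts, both whole numbers for each gene, and the same tables after full-quantile normalization, which from the values themselves are on a log2 scale. The submitters' processing notes name STAR 2.7.3. For the genome build, annotation and read counter, names were not given in the sources used here. No per-sample column was left unused (0), and groups came from the labels alone.

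The counts of each table went into their own edgeR model (edgeR 4.0.16, R 4.3.3) holding all its groups and no covariate, scaled by TMM and tested with the robust quasi-likelihood F-test. The filterByExpr step removed no gene. Genes were called where the p-value, after Benjamini-Hochberg adjustment across the whole table, was under 0.05. SE is the size of the log2 change divided by the square root of F. Code was tested on simulated data. Alternatives were relative log expression scaling, no filter, a mean of at least 5 CPM, DESeq2 1.42.0, limma 3.58.1 on the deposited log2 values, only the groups compared, each library left out in turn, and a replicate block. Replicate numbers did not pair the libraries: of 18 same-numbered correlations of deviations, from -0.287 to 0.181, 3 were over 0.1. No replicate pair agreed within sampling noise (lowest chi-square per degree of freedom 2.637). Labels name no separate clutches, so p-values measure the spread between these libraries, which may be technical.

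The members, role lists, partner lists and marker lists were chosen with earlier results of these data known. The rule for naming genes took, per comparison, the 12 called members of lowest p in each direction and up to 4 called members per role list. It also took all genes of a list of related pairs and up to 4 called genes per partner list. Only some of the listed pairs are drawn, and hdac1 is drawn beside hdac5 in place of its listed partner hdac2. A few members outside it were named after their values were seen: arid1a, arid2 and smarcd2 under stage, chd6, chd7, chd9, hdac6, hdac7, kmt2c, setd1b, kdm2a, the genes that turned, and the uncalled genes given under estradiol. The 10 role-list genes that were not members had no symbol in both tables, except setmar, which the name pattern does not match. Apart from setmar in the SET domain counts, they were not analysed here. Near-identical copies may share reads.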

Additional observations from a re-analysis of the deposited data

How the results depend on the processing

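The stage counts stayed within 1.5 times under each alternative. For cyclopamine the count of 19 was 8 at a mean of at least 5 CPM, 8 with limma on the deposited values, 29 with only the compared libraries, and 0 when replicate 1 stood for the cyclopamine group by itself, a fit added after seeing the data in which that library is assumed to vary like the other groups. It ran from 2 to 11 when 1 library was left out. At a mean of at least 5 CPM, 6 members were lower and 2 higher. With only the compared libraries, 24 were lower and 5 higher. The share of all genes called was 14.5% at a mean of at least 5 CPM, 14.5% with limma and 29% with only the compared libraries. For estradiol the count of 1 was 4 with DESeq2, and 0 at a mean of at least 5 CPM, with limma and with only the compared libraries. It ran from 0 to 4 with 1 library out. The share of all genes called was 8.95% with DESeq2 and 1.65% at a mean of at least 5 CPM. It was 1.22% with limma and 1.83% with only the compared libraries. For estradiol against cyclopamine the count of 7 was 4 with relative log expression scaling, 3 with limma, 0 with only the compared libraries and 0 when replicate 1 stood by itself, and ran from 0 to 11 with 1 library out. Between the drugs the share of all genes called was 6.1% with relative log expression scaling, 6.91% with limma and 1.78% with only the compared libraries. With the replicate block the count was 67 for stage 47 against stage 40, 18 for cyclopamine, 0 for estradiol against DMSO and 7 between the drugs, although the numbers do not pair the libraries. The shares of all genes there were 80.6%, 17.9%, 2.55% and 5.3%. Among the named genes, whose signs alone were followed, 3 uncalled changes turned: between stages 40 and 47, smarcd3 was 0.019 at a mean of at least 5 CPM and 0.0089 with limma, and hdac2 was 0.049 and 0.029 there and ran from -0.084 to 0.0054 with 1 library out. Under estradiol, ezh2 ran from -0.046 without estradiol replicate 3 to 0.36. The cause was not tested. The lowest count of a member in a library was 19, and what other depths or group sizes would give was not tested.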
